A study of Mus musculus with 4 samples.

Results

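Heterotrimeric G proteins pass signals from seven-transmembrane receptors into the cell. An alpha subunit binds GTP and acts on its own targets, a beta and a gamma subunit travel together as a membrane-bound dimer with targets of its own, and the Rgs proteins (regulators of G protein signalling) speed up GTP hydrolysis by the alpha subunit and so shorten the signal. In the embryonic nervous system this machinery serves chemokine, endothelin, lipid and transmitter receptors on dividing cells and on young neurons. The genes described here have a single platform symbol of the form Gna, Gnb1 to Gnb5, Gng or Rgs followed by their letters or number. Each is represented by the probe set with the highest mean signal over the arrays, before any rescaling. The rule found 121 probe sets of 51 genes, of 18193 genes in all: 16 in the alpha class, 5 beta, 11 gamma and 19 Rgs. One of the 16, Gnasas1, is an antisense RNA of the Gnas locus and not a subunit. Gng5, whose probe sets carry a second symbol, fell outside the rule.

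RNA was measured on 4 Affymetrix mouse arrays of cells sorted for GFP from neural tubes between forelimb and hindlimb at E10.5, all from mice of mixed B6SJLF1 and ICR background. The Atoh1-GFP group, 2 arrays, came from the line Atoh1BAC-GFP, in which a bacterial artificial chromosome places GFP in the Atoh1 lineage that forms dorsal interneuron 1 (dI1). The dNeurog1-GFP group, 2 arrays, came from a line in which an enhancer of Neurog1 drives GFP in the dorsal neural tube, marking dorsal interneuron 2 (dI2). The series' design text calls the 2 arrays of each population biological replicates, and the labels do not say how many embryos were pooled, nor outright that the GFP-positive fraction was hybridised. The comparison asks which genes separate the Atoh1 lineage from its neighbour.

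Most markers of the 2 populations went with their labels. All 5 dI1 markers were higher in Atoh1-GFP cells, with summed signals of 38820 and 37410 there, against 3815 and 4683 in dNeurog1-GFP cells. Of 6 dI2 markers, 4 were lower with the replicate number as a block, with summed signals of 1946 and 1922 against 8509 and 10100. As deposited, the replicate 1 arrays had a trimmed mean of 250 and the replicate 2 arrays one of 500, so all signals below were first brought to a common trimmed mean of 500. After that the lower quartile of all probe sets was still 42.3 and 17.6 (replicates 1 and 2) in Atoh1-GFP cells, against 34.3 and 17.4 in dNeurog1-GFP cells. Dim signals therefore differ between the replicate numbers in both populations, and many differences are also given within replicate 1 and within replicate 2. Within replicate 1 dim signals were also higher in Atoh1-GFP cells, with a median over probe sets of 138 against 115. Within replicate 2 the medians were 76.0 and 75.4. Differences of dim genes within replicate 1 keep that offset. Each difference is taken on log2(signal + 32), with dNeurog1-GFP subtracted from Atoh1-GFP, which understates the change of dim genes. In sorted bulk cells, fewer cells of a type and less RNA per cell cannot be told apart.

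A single gene of the family passed the threshold, the gamma subunit gene Gng4, and it was higher in Atoh1-GFP cells. Of the 51 members 39 were bright enough to be tested, and with limma at an adjusted p under 0.05, 1 of the 39 was called without the replicate block, where 0.220% of all 12733 genes tested were. With the replicate number as a block it was again 1 of 39, against 6.32% of all genes. Gng4 was also the one member at least 2-fold apart in the same direction within both replicate numbers, which held for 2.27% of all genes in either direction and for 1.11% toward Atoh1-GFP cells. The median difference of the 39 members was 0.08, against 0.01 for all genes, and 32 of them (82.1%) lay within 0.5 log2 units of 0, as did 81.7% of all genes.

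The stretch of genome just upstream of Gng4 is shown because this is the member on which the result turns and because Atoh1 and Neurog1, the factors that define the 2 lineages, are basic helix-loop-helix proteins, a class that binds E-boxes (CANNTG). The RefSeq promoter table (GRCm38.p6) gives 2 start sites for Gng4 on the plus strand of chromosome 13. The 250 bases before the first, chr13:13783809-13784058, are printed with CAGCTG and with CAGATG on either strand in capitals.

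Gng4: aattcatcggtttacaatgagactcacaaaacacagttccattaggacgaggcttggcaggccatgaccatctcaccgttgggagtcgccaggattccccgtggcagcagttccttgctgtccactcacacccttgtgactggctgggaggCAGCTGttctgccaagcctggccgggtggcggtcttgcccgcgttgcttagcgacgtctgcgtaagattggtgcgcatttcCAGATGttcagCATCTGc

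This window holds CAGCTG 99 bases before the start, CAGATG 18 bases before it and CATCTG, which is CAGATG on the other strand, 7 bases before it. The 3 matches do not overlap, and they are all the CANNTG matches of the 300-base window that runs to 50 bases past the start. The window of the second start site, chr13:13784057-13784356, holds 0 of CAGCTG and CAGATG and 2 other CANNTG matches. Of all 32851 promoter windows of 300 bases in the table, 30.6% hold at least 1 such match and 0.95% hold at least 3. Of the 50 windows that the table has for 37 members, 16 hold at least 1, and the first window of Gng4 is the one with 3. Any CANNTG is commoner, with 72.3% of all windows holding at least 1 and 17.6% holding 3 or more. These letters were chosen with the Gng4 window in view, and a match is a description of sequence and not a site of binding.

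Gng4 encodes a gamma subunit known mainly from neural tissue. Its chosen probe set had signals of 3767 (replicate 1) and 6872 (replicate 2) in Atoh1-GFP cells, against 665 and 767 in dNeurog1-GFP cells. Both Atoh1-GFP arrays lay far above both dNeurog1-GFP arrays. The log2 difference was 2.78, a 6.87-fold higher signal, with 2.45 within replicate 1 and 3.11 within replicate 2. It ranked eighth of the 12733 genes by difference toward Atoh1-GFP cells. The limma adjusted p was 0.037 without the block (standard error 0.32) and 0.0030 with it (standard error 0.18). Without the block the call is a narrow one: the adjusted p was 0.051 to 0.057 when the arrays were scaled to a common 75th percentile, when dim probe sets were filtered differently and when a gene's probe sets were averaged. On the signals as deposited, where the 2 scaling targets add to the spread within each group, it was 1.

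The other Gng4 probe sets differed in the same direction. The second probe set had 743 and 1254 in Atoh1-GFP cells, against 123 and 105 in dNeurog1-GFP cells, which is 2.78 on the log2 scale (2.33 within replicate 1 and 3.23 within replicate 2). The third was dim, with 148 and 87.1 in Atoh1-GFP cells, against 75.1 and 5.31 in dNeurog1-GFP cells, and differed by 1.21. The groups did not overlap on any of the 3. Fitted among all 27022 probe sets kept, the chosen one had a limma adjusted p of 0.155 without the block and 1.1e-05 with it, and the second 0.159 and 0.000107. The suffix of the chosen one marks a probe set that may read more than 1 transcript, and the second carries no such mark.

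**Figure D1:**
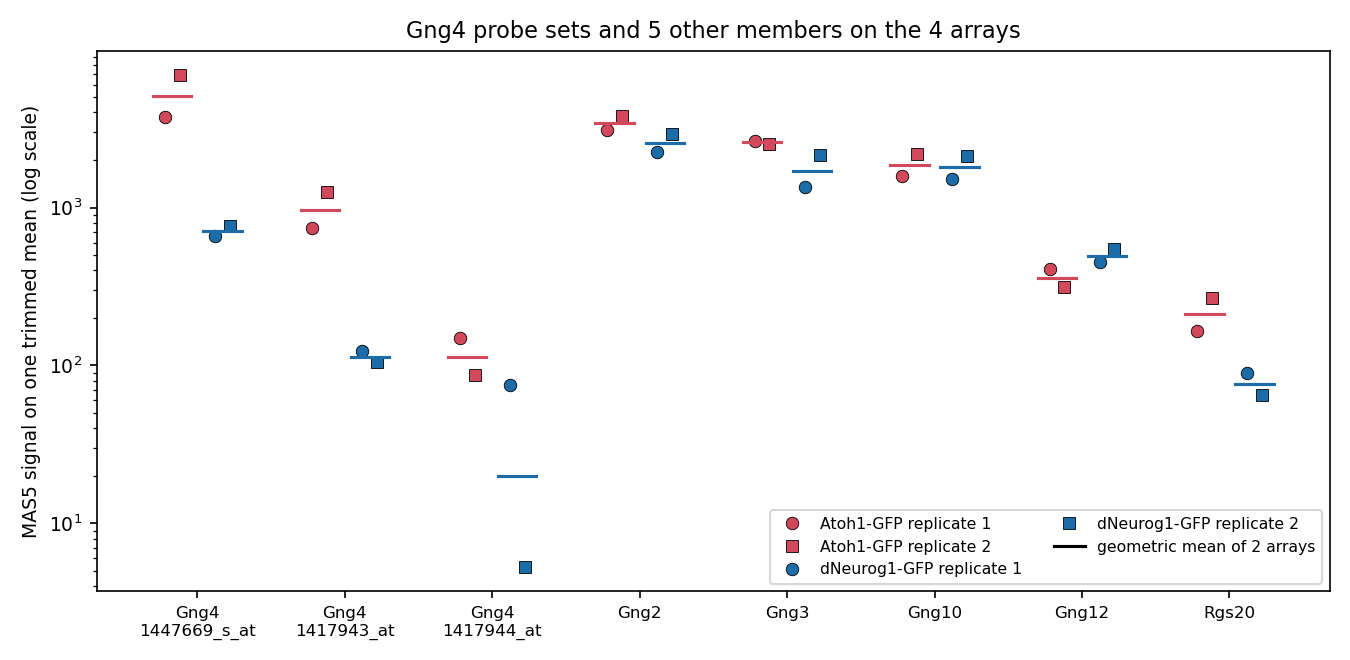
MAS5 signal on a log axis for the 3 Gng4 probe sets and for the chosen probe sets of Gng2, Gng3, Gng10, Gng12 and Rgs20. Each point is 1 array, circles for replicate 1 and squares for replicate 2, and each bar the geometric mean of a population's 2 arrays; the 2 Atoh1-GFP arrays stand above the 2 dNeurog1-GFP arrays on all 3 Gng4 probe sets, while those of Gng10 lie together. Heights of different probe sets cannot be compared.

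The genes whose pattern over the 4 arrays lay nearest to that of Gng4, by Euclidean distance between centred log2 values, were Sema7a (distance 0.50), Pdzrn4 (0.51), Barhl1 (0.56), Gsg1l (0.57) and Tmem163 (0.63). Sema7a is a membrane-anchored semaphorin, and Barhl1 a homeobox gene of the dI1 lineage. Sema7a had 3054 and 3694 in Atoh1-GFP cells, against 521 and 609 in dNeurog1-GFP cells. Barhl1 had 2891 and 3695 in Atoh1-GFP cells, against 511 and 380 in dNeurog1-GFP cells. The closest members of the family itself were farther away, Rgs20 at 1.66, Gnal at 2.29 and Gng3 at 2.31. This distance depends on the size of the difference, so genes with small differences lie far from Gng4 by construction.

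Most gamma subunit genes, Gng4 included, lay toward Atoh1-GFP cells, though none besides Gng4 was called. Gamma subunits carry the lipid anchor that holds the dimer at the membrane. Of 9 tested, 8 had a positive difference and 1, Gng12, a negative one, with the same sign within both replicate numbers for each of the 9, and the count of 8 and 1 was the same under all 3 other scalings. Over all genes 6459 of 12733 had a positive difference, and 67.0% had the same sign within both replicate numbers. The class median was 0.41 (0.45 within replicate 1 and 0.23 within replicate 2), against 0.01 for all genes. In 6 of the 9 both Atoh1-GFP arrays lay above both dNeurog1-GFP arrays, which was so for 16% of all genes, and in 1 of the 9 below, which was so for 18.8% (34.8% either way). Gng4 is counted in the 8, in the 6 and in the class median.

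Gng2 and Gng3 are gamma subunits of brain, the second of them largely restricted to neurons. Gng2 had 3090 and 3784 in Atoh1-GFP cells, against 2254 and 2926 in dNeurog1-GFP cells. That is a difference of 0.41 (0.45 within replicate 1 and 0.37 within replicate 2), with limma adjusted p of 0.81 without the block and 0.096 with it. The other 3 Gng2 probe sets had differences of 0.40 to 0.90, and 1 of them came to -0.04 within replicate 2. Gng3 had 2635 and 2535 in Atoh1-GFP cells, against 1345 and 2161 in dNeurog1-GFP cells, and the dNeurog1-GFP replicate 1 array is the low one. Its difference was 0.59, made of 0.95 within replicate 1 and 0.23 within replicate 2 (limma adjusted p = 0.67 without and 0.13 with the block). Both passed in 1 setting, quantile normalization with the block (adjusted p = 0.021 for Gng2 and 0.017 for Gng3), where 13.3% of all genes passed. Of 11 pan-neuronal markers, such as tubulin beta 3 (Tubb3) and doublecortin (Dcx), 4 passed upward in Atoh1-GFP cells and 1, Nefm, downward when the block was included. Their summed signals were 58540 and 60920 in Atoh1-GFP cells, against 39160 and 52330 in dNeurog1-GFP cells. No sum was near 0, and the lowest was on the array where Gng3 was low. Nefl (-0.71), Nefm (-0.78) and Gap43 (-0.61) had negative differences and were not lowest on that array, while the other markers had positive differences. The erythroid markers also lay toward Atoh1-GFP cells, with sums of 30530 and 31650 there, against 7736 and 22860 in dNeurog1-GFP cells, lowest on the same array, and 0 of the 3 tested were called. The heart muscle markers had sums of 1870 and 4020, against 434 and 2051, and 2 of 6, Myl7 and Myl4, were higher with the block. The part of any of these cells in the gamma subunit values, that of Gng11 included, was not tested.

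Gng7, a gamma subunit best known from the striatum, had 197 and 158 in Atoh1-GFP cells, against 129 and 116 in dNeurog1-GFP cells (log2 difference 0.43). Gng8 had 161 and 130, against 125 and 89.0 (0.36). In both genes the groups did not overlap, and neither difference passed (limma adjusted p = 0.96 for Gng7 and 0.998 for Gng8 without the block). Gng11 had 459 and 383 in Atoh1-GFP cells, against 245 and 327 in dNeurog1-GFP cells, a difference of 0.52 that came to 0.83 within replicate 1 and 0.21 within replicate 2. Of 9 endothelial and pericyte markers, 0 of the 7 tested were called in either model (limma, lowest adjusted p = 0.104 with the block). Their sums were 2134 and 1005 in Atoh1-GFP cells, against 795 and 1206 in dNeurog1-GFP cells. The list medians were 1.12 within replicate 1 and 0.26 within replicate 2. Pecam1, Kdr, Tek and Cldn5 were higher within both replicate numbers, and Cdh5, Pdgfrb and Cspg4 within replicate 1 only. The part of these markers' cells in the Gng11 values was not tested.

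Gng10, a broadly expressed gamma subunit, was the nearest to level of the class, with 1592 and 2167 in Atoh1-GFP cells against 1525 and 2109 in dNeurog1-GFP cells (0.05). Gng13, known from taste and retinal cells, had 133 and 61.5 against 109 and 60.9 (0.12). Gng12 ran the other way, with 407 and 314 in Atoh1-GFP cells, against 451 and 546 in dNeurog1-GFP cells (-0.44; adjusted p = 0.82 without and 0.28 with the block). The phototransduction subunits Gngt1 and Gngt2 fell below the brightness filter, with no array above 47.3 for Gngt1 or 41.0 for Gngt2.

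The alpha and beta subunits, which form the core of the trimer, were mostly close to level between the populations on their chosen probe sets. Of 11 alpha genes tested, 7 had a positive and 4 a negative difference, none was called in either model, and 10 lay within 0.5 log2 units of 0. At an unadjusted p under 0.05 limma counted 0 of the 11 in either model, against 8.62% of all genes without the block and 22.5% with it. Gnas encodes the stimulatory alpha subunit that turns on adenylyl cyclase. It had 12079 and 10371 in Atoh1-GFP cells, against 11580 and 9311 in dNeurog1-GFP cells, which is 0.11 on the log2 scale with overlapping groups. The antisense Gnasas1 was below the filter, at 25.7 and 22.7 in Atoh1-GFP cells, against 37.1 and 5.82 in dNeurog1-GFP cells.

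The inhibitory alpha subunits, which lower cyclic AMP, did not share a sign on their chosen probe sets, and none was called. Gnai3 had 6551 and 6146 in Atoh1-GFP cells, against 5697 and 5051 in dNeurog1-GFP cells (0.24). Its dimmer second probe set came to 0.595 within replicate 1 and -0.522 within replicate 2. Gnai2 had 7832 and 7370, against 7740 and 5481 (0.22), the last array being the low one, while its other probe set had a difference of -0.25. Gnai1 went the other way, at 926 and 1114 against 1041 and 1518 (-0.30). The neural subunit Gnao1 had 650 and 366, against 463 and 346 (0.27), and Gnaz had 200 and 223, against 266 and 187 (-0.07). A second, dimmer Gnao1 probe set had 225 and 110 in Atoh1-GFP cells, against 102 and 61.6 in dNeurog1-GFP cells. Its difference was 0.77 (0.94 within replicate 1 and 0.60 within replicate 2). The second Gnaz probe set had a difference of 0.20. Gnaq and Gna11, which act on phospholipase C, and Gna12 and Gna13, which act on the cytoskeleton, had differences from -0.30 (Gna11) to 0.07 (Gna12).

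Gnal, the stimulatory alpha subunit of olfactory and striatal neurons, had the largest alpha difference among the chosen probe sets, 0.62. It was a dim probe set with 126 and 105 in Atoh1-GFP cells, against 51.0 and 77.8 in dNeurog1-GFP cells (adjusted p = 0.92 without and 0.27 with the block). Its 2 other probe sets had differences of 0.17 and 0.45, and the second of these was slightly brighter than the chosen one after rescaling. Gna14, Gna15 and the transducins Gnat1 and Gnat2 lay below the brightness filter of 63.5, with mean signals of 28.9 to 61.9.

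Among the beta subunits, the propeller-shaped partners of gamma, Gnb1 had 8358 and 8967 in Atoh1-GFP cells, against 7062 and 8008 in dNeurog1-GFP cells (0.20). Gnb2 had 4566 and 5946, against 4631 and 5826, a difference of 0.00. None of the 5 was called, and limma counted 0 at an unadjusted p under 0.05 in either model. Gnb4 and Gnb5, the second of which pairs with a subgroup of Rgs proteins in place of a gamma subunit, had differences of -0.05 and -0.12. Gnb3, the beta subunit of cone photoreceptors, had 271 and 42.7 in Atoh1-GFP cells, against 81.6 and 31.1 in dNeurog1-GFP cells. Its difference of 0.83 rests on 1 array: it was 1.41 within replicate 1, 0.24 within replicate 2, and -0.18 when the Atoh1-GFP replicate 1 array was left out.

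**Figure D2:**
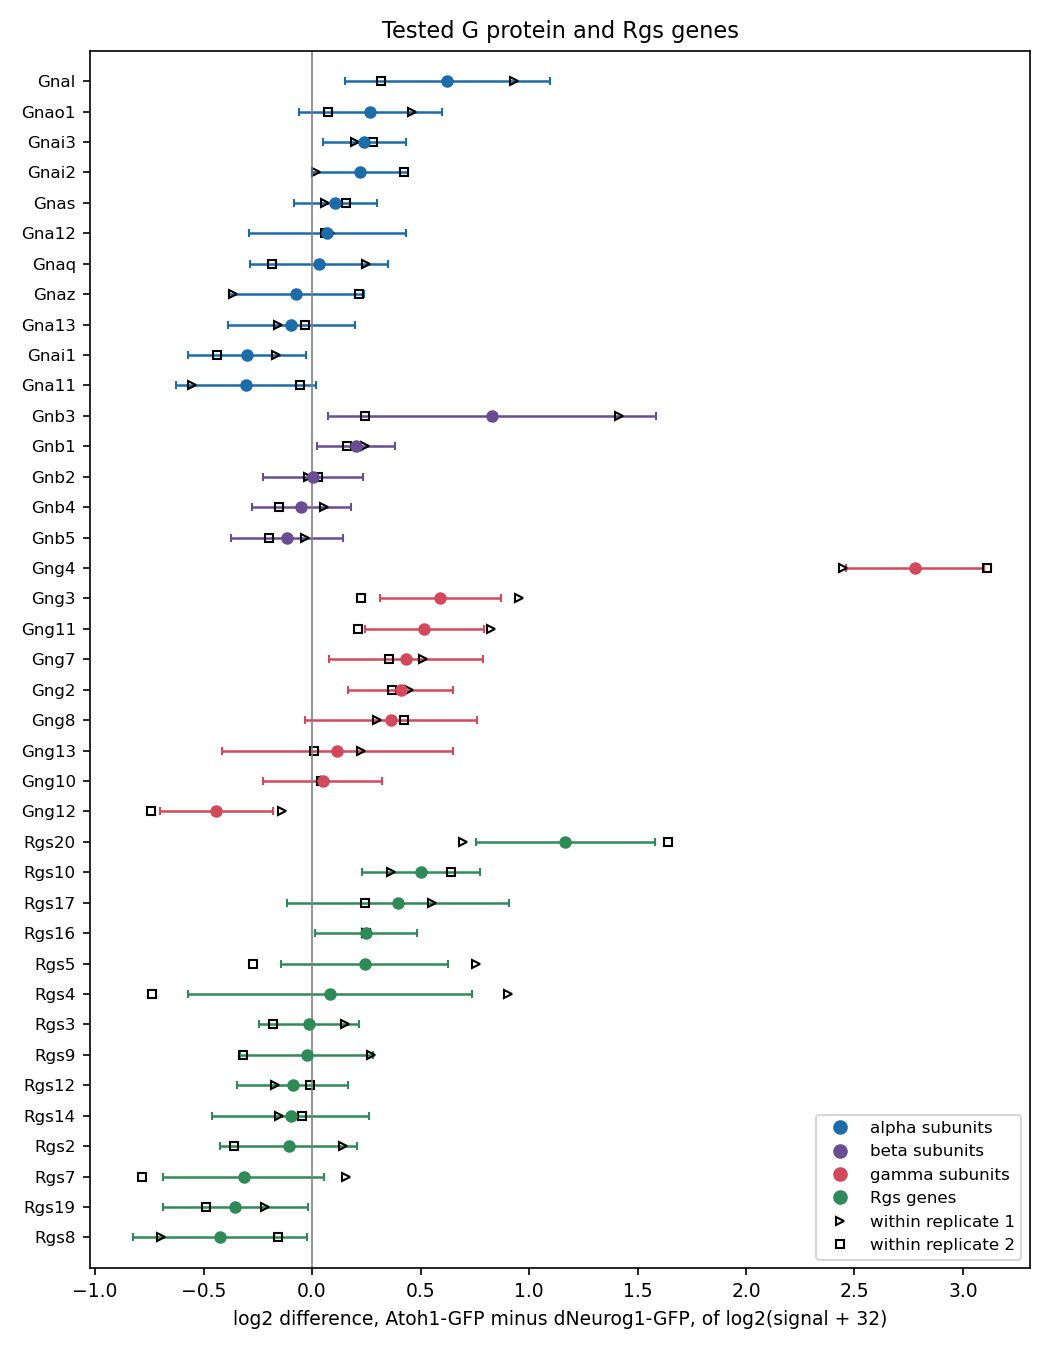
Log2 differences, Atoh1-GFP minus dNeurog1-GFP, of the 39 tested members by class. Filled points with bars are the difference and its standard error without the block, and open triangles and squares the differences within replicates 1 and 2; Gng4 at 2.78 stands apart, 8 of the 9 gamma subunits lie right of 0, and the alpha and beta subunits cluster around it.

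The Rgs genes showed no common direction. Of 14 tested, 6 had a positive and 8 a negative difference, 6 changed sign between the replicate numbers, and none was called in either model. The class median was -0.02, from 0.20 within replicate 1 and -0.17 within replicate 2. At an unadjusted p under 0.05 limma counted 1 of the 14 without the block and 2 with it, against 8.62% and 22.5% of all genes.

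The largest Rgs difference was that of Rgs20, which belongs with Rgs17 and Rgs19 to a subfamily known for acting on the Gnaz product. Rgs20 had 165 and 269 in Atoh1-GFP cells, against 89.4 and 64.5 in dNeurog1-GFP cells, and the groups did not overlap. The log2 difference was 1.17 (0.70 within replicate 1 and 1.64 within replicate 2), with limma adjusted p of 0.45 without the block and 0.088 with it. It passed in quantile normalization with the block (adjusted p = 0.034), where 13.3% of all genes passed. Its second probe set had a difference of 0.46, and the third, which was below the filter, one of -0.21. Rgs17 had 203 and 85.7 in Atoh1-GFP cells, against 128 and 67.5 in dNeurog1-GFP cells (0.40). Rgs19 had 549 and 793, against 643 and 1127 (-0.35), and its second probe set had a difference of 0.02. On the chosen probe sets the 3 genes of this subfamily thus did not share a direction.

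Rgs10, Rgs12 and Rgs14 form a second subfamily, acting on inhibitory alpha subunits. Rgs10, also abundant in microglia and platelets, had 303 and 359 in Atoh1-GFP cells, against 229 and 219 in dNeurog1-GFP cells. Its difference was 0.50, with 0.36 and 0.64 within replicates 1 and 2 (limma adjusted p = 0.74 without and 0.22 with the block). Beside it, 2 of the 4 tested leukocyte and platelet markers, the platelet chemokines Pf4 and Ppbp, were higher in Atoh1-GFP cells with the block. The sums of all 7 were 1256 and 1918 in Atoh1-GFP cells, against 584 and 612 in dNeurog1-GFP cells. Ptprc, Aif1 and Itgam were below the filter, and Csf1r had 307 and 270 against 177 and 100. Their part in the Rgs10 values was not tested. Rgs12 and Rgs14 had differences of -0.09 and -0.10. A second kept Rgs12 probe set had 178 and 129 in Atoh1-GFP cells, against 119 and 84.7 in dNeurog1-GFP cells, a difference of 0.47.

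A further group, small Rgs proteins made of little more than the catalytic domain, held Rgs4 and Rgs5, which changed sign between the replicate numbers. Rgs4 had 134 and 187 in Atoh1-GFP cells, against 56.6 and 334 in dNeurog1-GFP cells, higher within replicate 1 by 0.90 and lower within replicate 2 at -0.74. Rgs5, a marker of pericytes and its neighbour on the chromosome, had 219 and 142, against 117 and 178, which came to 0.75 within replicate 1 and -0.27 within replicate 2. A second kept Rgs5 probe set did not change sign, with 152 and 59.8 in Atoh1-GFP cells, against 46.8 and 48.0 in dNeurog1-GFP cells. It came to 1.23 within replicate 1 and 0.20 within replicate 2. That of Rgs4 did change sign (0.70 and -0.64). On the chosen probe sets of both genes the 2 dNeurog1-GFP arrays lay on either side of at least 1 Atoh1-GFP array. The summed mesenchyme and muscle markers were likewise higher within replicate 1 and lower within replicate 2, at 6180 and 4332 in Atoh1-GFP cells, against 2947 and 6742 in dNeurog1-GFP cells, with 0 of the 8 called. So were the endothelial and pericyte sums given beside Gng11, but the median difference of that list within replicate 2 was 0.26. Its Pdgfrb had 320 in Atoh1-GFP cells there, against 572. The ventral neural tube sums were 1490 and 1156, against 1160 and 3948, with list medians of 0.01 and -2.06 within replicates 1 and 2. Of those markers 2 of 10 were lower with the block. The sums of the 3 neural crest and sensory ganglion markers on the array were also higher within replicate 1 and lower within replicate 2. They were 408 and 283, against 204 and 671, and 0 of the 2 tested were called. The part of these cells in the Rgs4 and Rgs5 values was not tested.

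Rgs16 had 1788 and 2129 in Atoh1-GFP cells, against 1499 and 1787 in dNeurog1-GFP cells, with 0.25 within each replicate number. Its neighbour Rgs8 had 290 and 654, against 490 and 733 (-0.43). Rgs2, which prefers the Gnaq product, had 1055 and 1292 in Atoh1-GFP cells, against 952 and 1665 in dNeurog1-GFP cells (-0.11), and Rgs3 a difference of -0.01. Rgs7 and Rgs9, of the subfamily that pairs with Gnb5, had differences of -0.31 and -0.03, each positive within replicate 1 and negative within replicate 2.

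Rgs1, Rgs6, Rgs11, Rgs13 and Rgs18 were below the filter. Rgs13 had 3.64 and 0.638 in Atoh1-GFP cells, against 52.5 and 43.8 in dNeurog1-GFP cells. Without detection calls these levels cannot be placed above or below background. Rgs18, known from platelets and their precursors, had 33.9 and 50.8 in Atoh1-GFP cells, against 49.4 and 3.52 in dNeurog1-GFP cells, and its second probe set had 51.2 and 53.9 against 14.5 and 6.53. Pf4 had 598 and 988 in Atoh1-GFP cells, against 139 and 270 in dNeurog1-GFP cells. Whether this marker's cells carry the Rgs18 signal was not tested.

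**Figure D3:**
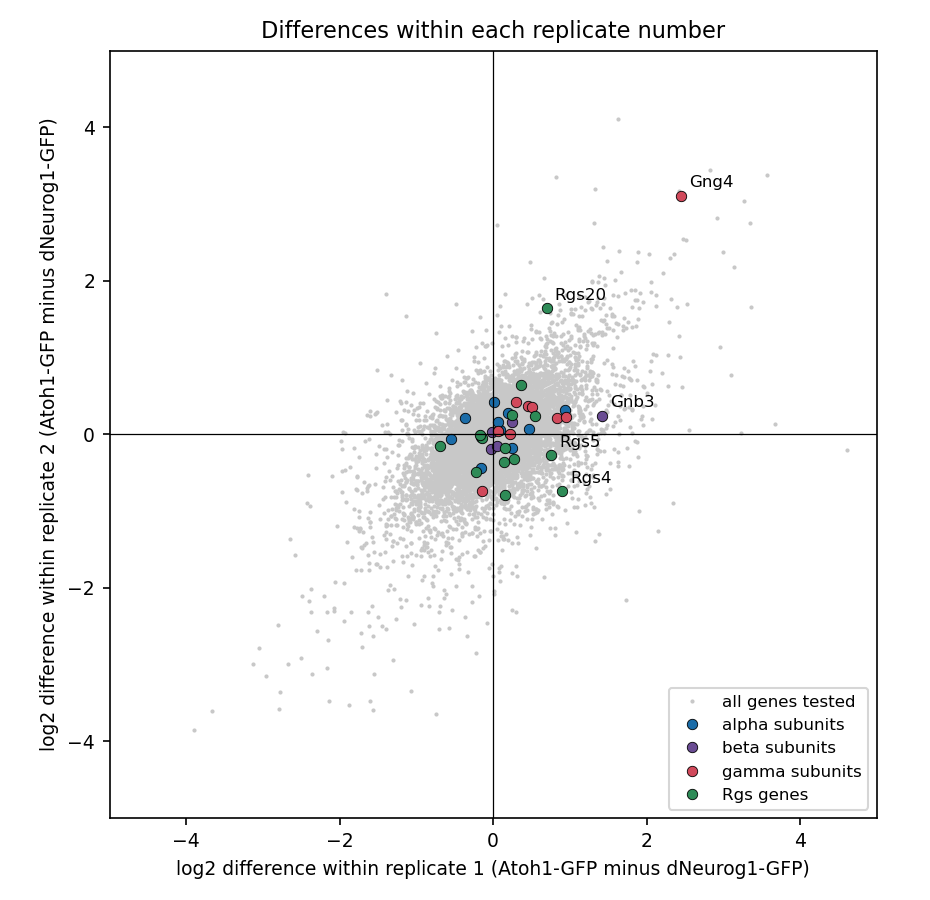
Log2 difference within replicate 1 on the horizontal axis against that within replicate 2 on the vertical axis, Atoh1-GFP minus dNeurog1-GFP, for all 12733 genes tested (grey) and the 39 members (coloured by class). Gng4 lies at 2.45 and 3.11, Rgs20 at 0.70 and 1.64, and Rgs4 at 0.90 and -0.74, while most members sit in the grey centre.

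The receptors and effectors that G proteins connect were taken from lists of pathway genes. In Atoh1-GFP cells 3 of 53 tested passed upward and 2 downward once the block was in the model, and limma called 0 without it. The corresponding shares of all genes were 2.69% upward and 3.64% downward. The median over the lists was 0.13 (0.15 within replicate 1 and -0.04 within replicate 2).

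Among 19 receptors tested, 2 somatostatin receptors, which couple to inhibitory alpha subunits, were higher in Atoh1-GFP cells. Sstr2 had 945 and 728 in Atoh1-GFP cells, against 317 and 259 in dNeurog1-GFP cells, which is 1.44 on the log2 scale (limma adjusted p = 0.011 with the block and 0.107 without it). Sstr3 had 305 and 237, against 93.4 and 17.4, or 1.94 in log2 units (adjusted p = 0.027 with the block and 0.28 without it). A pair of receptors known from migrating and progenitor cells were lower. The endothelin receptor gene Ednrb had 1146 and 562 in Atoh1-GFP cells, against 5728 and 3467 in dNeurog1-GFP cells, or -2.42 in log2 units (adjusted p = 0.0017 with the block and 0.087 without it). The chemokine receptor gene Cxcr4 had 1536 and 1011, against 2469 and 2535, or -0.99 in log2 units (adjusted p = 0.031 and 0.28). The groups did not overlap for any of the 4. Of 9 neural progenitor markers 4 were lower with the block, with sums of 44270 and 36260 in Atoh1-GFP cells, against 64080 and 46600 in dNeurog1-GFP cells, and their part in the Ednrb and Cxcr4 values was not tested. The GABA-B receptor gene Gabbr1 (0.56) and the cannabinoid receptor gene Cnr1 (0.92) missed the threshold, and the second of them differed by 1.65 within replicate 1 and 0.18 within replicate 2.

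Effectors were mostly level. Of 6 protein kinase A subunits, the regulatory subunit gene Prkar2a was higher in Atoh1-GFP cells, with 7455 and 11589 against 4430 and 4964 in dNeurog1-GFP cells (0.98; limma adjusted p = 0.023 with the block and 0.25 without it). Its relative Prkar2b had 951 and 1011 in Atoh1-GFP cells, against 1322 and 1650 in dNeurog1-GFP cells (-0.58; adjusted p = 0.064 with the block). None of the 8 adenylyl cyclases (median 0.15), 4 phospholipase C beta genes (-0.09), 2 potassium channel genes gated by beta-gamma dimers (0.06), or 5 receptor kinases and arrestins (-0.10) was called in either model. Of 9 other modulators none was called, and Gpsm1 (0.34) and Gpsm2 (-0.51), which hold inhibitory alpha subunits in the GDP-bound state and in mitosis orient the spindle, differed in opposite directions within both replicate numbers.

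**Figure D4:**
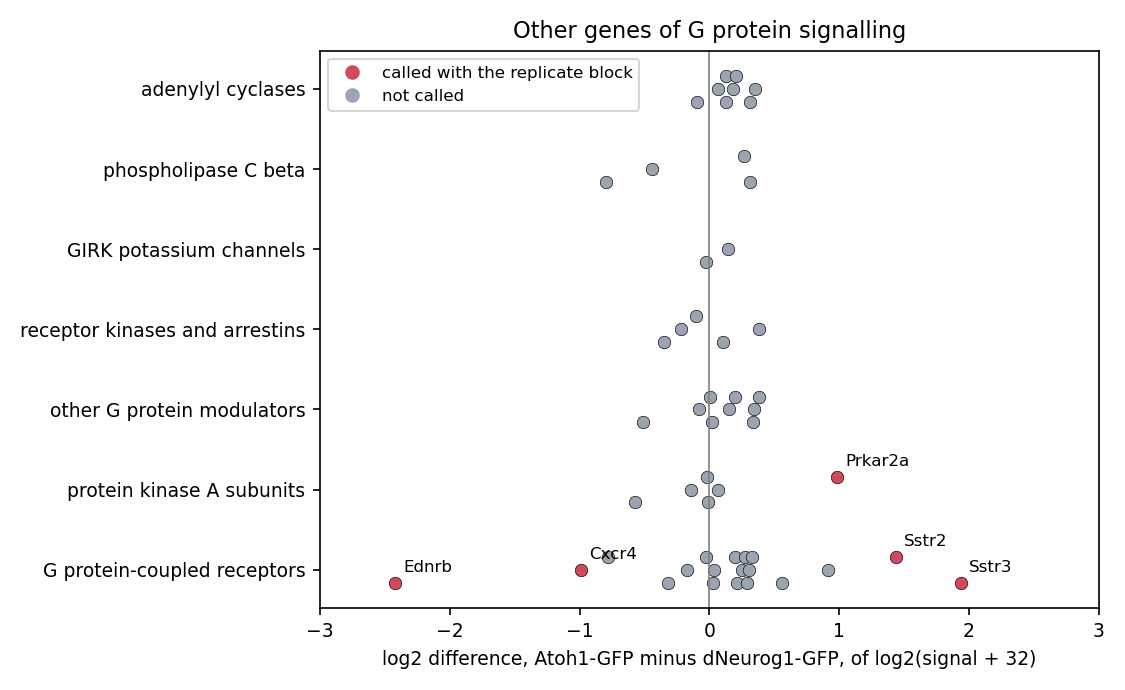
Log2 differences, Atoh1-GFP minus dNeurog1-GFP, of the 53 tested receptor and effector genes by list, 1 point a gene. Red points passed with the replicate block; Sstr2, Sstr3 and Prkar2a lie to the right and Ednrb and Cxcr4 to the left, and the points of the other 5 lists lie within 1 log2 unit of 0.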

How the data were processed

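Sorted neural tube cells of 2 populations were hybridised to 4 arrays, 2 per population. The authors deposited MAS5 signal intensity values on a linear scale, 1 column per array, per the submitters' processing notes; no source used here gives version, targets or detection calls. Signal intensities were rescaled here to a common trimmed mean of 500 (2% left out at each end, all 45101 probe sets). The 64 control probe sets were left out, and genes with a mean below 63.5, the 40th percentile, were not tested, leaving 12733. Of the other probe sets, 34945 had 1 symbol, 932 several and 9160 none; RefSeq matched all 51 members by gene ID. Log2(signal + 32) was fitted with limma 3.58.1 (R 4.3.3, intensity trend) and Benjamini-Hochberg adjustment over all genes, with no block (2 residual degrees of freedom) and blocking on replicate number (1). The p-values therefore rest largely on spread shared across genes, and the number of arrays limits precision: an exact test of 2 against 2 cannot go below p = 0.33 two-sided. Named genes were Gng4, members called or 2-fold apart within both replicate numbers, the brightest of each class, members tied to other cell types, the 5 genes nearest to Gng4 and called pathway genes; the further members were added after their values were seen. The members and lists were chosen with earlier results of these data known. No label ties equal replicate numbers to a shared day or litter. The fit was tested on simulated data. Other scalings, pseudocounts, filters, probe set rules and leaving out arrays were tried. One further list of pathway genes is not reported here and enters none of the counts.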

Additional observations from a re-analysis of the deposited data

How the results depend on the processing

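Gng4 stayed higher in Atoh1-GFP cells under every alternative run, but its call depended on the processing. With the replicate block its difference was 2.78 and 1 member was called; quantile normalization (2.82) and pseudocounts of 16 and 64 (2.81 and 2.73) also kept the call. It missed the threshold as deposited (2.75, adjusted p = 1), on one 75th percentile (2.74, 0.051), without a filter (2.78, 0.057), with a filter at the 60th percentile (2.78, 0.053), as the mean of its probe sets (2.26, 0.056), and, chosen after seeing the data, in a fit of all 27022 kept probe sets, through the chosen probe set (2.78, 0.155) as through the other 2 (2.78, 0.159, and 1.21, 1). Under each of the first 5, and in that fit, limma called 0 members, with 1 to 3 at an unadjusted p under 0.05; the cause was not tested. Quantile normalization with the block, also added later, called 4 of 40 members, Gng2, Gng3, Gng4 and Rgs20, where 13.3% of all genes passed. The deposited signals with the block called 1 of 40 members, and 1169 of 12751 genes in all. Leaving out each array in turn gave 1 to 1 members called and Gng4 differences of 2.35 to 3.21, but sets 1 array against 2, with the lone array assumed to vary like the others, and these calls say nothing about stability. The members 2-fold apart within both replicate numbers were 2 without a filter, Gng4 and Rgs13, and 1 otherwise. Over all genes, calls came to 28 in the model without the block, 805 with it, 13 as deposited (1 higher, 12 lower), 26 after quantile normalization (17 and 9), 18 on one 75th percentile (7 and 11), 14 without a filter, 18 with the 60th percentile filter, 14 with averaged probe sets, and 156 to 380 without 1 array. Of 163 alternative values of 13 members named besides Gng4, 9 changed sign, all in Gnas, Gnb3, Rgs4 and Rgs5. Leaving out arrays gave Gnas -0.049 to 0.265, Gnb3 -0.18 to 1.84, Rgs4 -0.94 to 1.11 and Rgs5 -0.023 to 0.507; Gnas was also -0.018 with averaged probe sets and Rgs4 -0.013 as deposited. Across genes, replicate 1 minus replicate 2 correlated between the populations at r = 0.66, a hint from the data and not from the design. Without detection calls, dim members cannot be separated from background.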

Other observations

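Of the members, 25 had several probe sets bright enough to be kept, and in 15 of the 25 all of them shared the sign of the difference. Gnaq had 7 kept probe sets, with differences from -0.10 to 0.50, and Gna13 had 7, from -0.22 to 0.06. The brightest Gnaq probe set after rescaling was not the chosen one and had a difference of 0.21. Both genes thus have probe sets on either side of 0.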
